A study of Rattus norvegicus with 11 samples.

Results

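A set of genes of antigen presentation by major histocompatibility complex (MHC) class II molecules were followed in rat calvarial wounds that had received different scaffolds. The genes were picked by symbol, as RT1-Da, RT1-Db1, RT1-Ba, RT1-Bb, RT1-DMa, RT1-DMb, Cd74 and Ciita, and make 8 of the 23781 genes in the count and FPKM tables. Nascent tissue was taken from suture-bony composite defects of the coronal sutures of Sprague Dawley rats, 4 months old, 6 weeks after surgery, digested with collagenase, and its Cd45- cells were sorted by flow cytometry and sequenced. Defects of the NC group (3 libraries) were left without a scaffold. The GelMA group (3 libraries) received gelatin methacryloyl, a hydrogel, the CTS group (3 libraries) a porous chitosan scaffold, and the PLA group (2 libraries) an electrospun polylactic acid membrane.

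MHC class II molecules are pairs of an alpha and a beta chain that display peptides from ingested protein to CD4 T cells. In the rat, RT1-B and RT1-D are the classical pairs, corresponding to HLA-DQ and HLA-DR in humans. The invariant chain Cd74 fills the peptide groove while the pair travels to late endosomes, where cathepsins trim it and the RT1-DM pair helps exchange the remaining fragment for antigen. Ciita is the coactivator that switches the whole set on; it does not bind DNA itself but is held at class II promoters by factors on the X and Y boxes. The genes are best known from dendritic cells, B cells and macrophages, and interferon gamma can induce them in other cells, fibroblasts and endothelium included.

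The promoter is where these genes are known to be switched together, so the stretch around the X and Y boxes is shown for the members that had an entry in the RefSeq promoter table (GRCr8). Of the 8 members, 6 had one, and all of these but Cd74 held the pair of motifs searched. Capitals mark GNNACNG, the core of the X box, and TGATTGG, the Y box, with 15 bases on either side, read 5′ to 3′ along the gene.
RT1-Da (chr20:4515318-4515385, plus strand): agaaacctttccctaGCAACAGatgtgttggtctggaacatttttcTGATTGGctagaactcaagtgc
RT1-Db1 (chr20:4560223-4560289, minus strand): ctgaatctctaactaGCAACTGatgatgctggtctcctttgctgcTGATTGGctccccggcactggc
RT1-Ba (chr20:4576966-4577033, plus strand): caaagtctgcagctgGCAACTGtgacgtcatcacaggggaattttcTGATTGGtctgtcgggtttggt
RT1-Bb (chr20:4604160-4604226, minus strand): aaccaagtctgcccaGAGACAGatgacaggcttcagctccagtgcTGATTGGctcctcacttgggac
RT1-DMa (chr20:4712380-4712447, minus strand): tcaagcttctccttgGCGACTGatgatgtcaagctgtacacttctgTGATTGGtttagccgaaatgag
In these 5 promoters the motifs began 30 or 31 bases apart, and the Y box began 45 to 82 bases before the start of the gene. Cd74 held no TGATTGG, and its stretch is given around a CCAAT, the Y box core on the other strand.
Cd74 (chr18:56526972-56527051, plus strand): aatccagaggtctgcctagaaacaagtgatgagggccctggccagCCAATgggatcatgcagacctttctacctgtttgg
Both strands were searched in 33469 promoters of 300 bases. GNNACNG is so short that 88.1% of promoters held it, TGATTGG stood in 7.06%, and the spaced pair, 20 to 40 bases apart on the same strand, in 0.604%. The motif letters were chosen with class II promoters in view, so the matches are a description. The letters ATTGG lie inside TGATTGG and were found in 37.5% of promoters.

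The libraries held 22509898 to 31290849 counted reads. Levels are given as CPM, counts relative to the library total after TMM scaling, which corrects for a few genes taking up much of a library; its factors were 0.77 and 0.78 in PLA and 0.80 to 1.14 elsewhere. NC 2 stood apart. Its Col3a1, a fibrillar collagen, was at 90406 CPM against 1942 to 13272 in the other libraries, and 8 leukocyte genes summed to 1045 CPM there against 2861 to 3985. The gate was for Cd45- cells, yet Ptprc, which encodes Cd45, was at 336 CPM in NC 2 and 1020 to 1460 CPM elsewhere.

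The classical RT1-D pair was highest in the GelMA wounds. RT1-Da, the alpha chain, was at 1135, 1094 and 1037 CPM in the 3 GelMA libraries, at 160, 387 and 166 CPM in NC, at 380, 291 and 537 CPM in CTS and at 313 and 427 CPM in PLA. RT1-Db1, the beta chain, was at 331, 443 and 502 CPM in GelMA, 58.0, 99.4 and 85.2 CPM in NC, 156, 72.2 and 179 CPM in CTS and 139 and 199 CPM in PLA. For both chains every GelMA library lay above every other library, CTS overlapped NC and PLA, and PLA overlapped NC for RT1-Da but not for RT1-Db1. RT1-Db2, a near copy of RT1-Db1, held only 1 to 80 reads per library, and how counting divided reads between these copies is uncertain.

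The RT1-B pair was also highest in GelMA and lowest on average in NC, with PLA above CTS on average. RT1-Ba was at 298, 492 and 626 CPM in GelMA, 82.1, 47.2 and 105 CPM in NC, 204, 65.6 and 160 CPM in CTS and 181 and 236 CPM in PLA. RT1-Bb was at 342, 428 and 537 CPM in GelMA, 43.3, 42.7 and 79.7 CPM in NC, 181, 84.7 and 163 CPM in CTS and 153 and 220 CPM in PLA. Both PLA libraries exceeded all NC libraries for both chains, a description for which the share over all genes was not counted. CTS 2 was the lowest CTS library for both, and for RT1-Ba it fell within the NC range.

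Cd74, the invariant chain, was the most abundant member. It was at 2184, 2293 and 2213 CPM in GelMA (2230 ± 56.5, SD, n = 3), 323, 790 and 336 CPM in NC (483 ± 266, n = 3), 738, 590 and 1109 CPM in CTS (812 ± 268, n = 3) and 649 and 891 CPM in PLA (770 ± 171, n = 2). The GelMA libraries were close together and far above the rest, while NC 2, the collagen-rich library, lay among the CTS and PLA libraries. The peptide exchange pair varied least. RT1-DMa was at 59.7, 78.0 and 68.6 CPM in GelMA, 29.2, 23.5 and 23.0 CPM in NC, 48.6, 47.2 and 51.2 CPM in CTS and 42.4 and 42.5 CPM in PLA. RT1-DMb was at 113, 122 and 112 CPM in GelMA, 42.2, 22.1 and 43.4 CPM in NC, 87.3, 73.3 and 97.4 CPM in CTS and 54.1 and 57.3 CPM in PLA. For both RT1-DM genes the groups did not overlap at all and ran GelMA, CTS, PLA and NC from high to low. This order is a description, since the share of all genes with such an order was not counted.

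Ciita, the coactivator, had the widest range and the fewest reads. It was at 21.9, 20.9 and 23.3 CPM in GelMA, from 687 to 799 reads, and at 0.76, 3.39 and 2.30 CPM in NC, from 18, 75 and 60 reads. CTS stood at 3.93, 3.92 and 6.75 CPM and PLA at 5.18 and 5.33 CPM. Its highest library was 30.5 times its lowest, against 13.3 times for RT1-Ba and 3.39 times for RT1-DMa. The 8 genes together took 0.513 to 0.573% of all counted reads in GelMA, 0.0773 to 0.114% in NC, 0.134 to 0.248% in CTS and 0.12 and 0.16% in PLA.

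**Figure D1:**
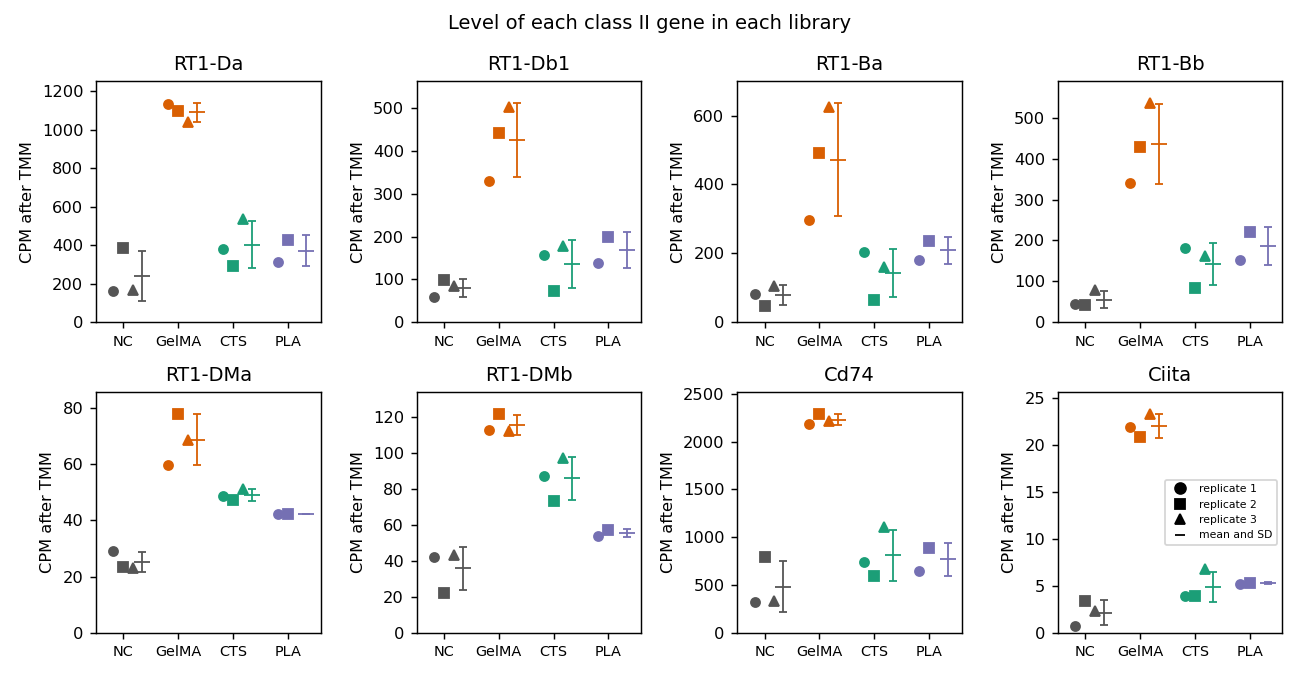
Level of each class II gene (CPM after TMM scaling, linear axes from 0) in the 11 libraries, by group; point shapes are replicate numbers and the bar beside each group is its mean with the SD (n = 3, PLA n = 2). In all 8 panels the 3 GelMA libraries lie above the other 8.

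Each gene was tested with edgeR's quasi-likelihood test in 1 fit over the 11 libraries, with Benjamini-Hochberg adjustment over 18049 genes, and all 8 members passed the filter on low counts. A gene was called where the adjusted p was under 0.05 and the log2 fold change beyond 1. In any direction, all 8 members differed among the 4 groups at an adjusted p of 0.000844 for RT1-DMa to 0.0111 for RT1-Ba, against 18.8% of all genes. All 3 GelMA libraries lay above the other 8 for 8 of 8 members, against 6.6% of all genes. Fewer cells of a type and less RNA per cell cannot be told apart in these bulk libraries.

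Every member was higher with GelMA than in the unfilled defect. All 8 were called higher, where 5.03% of all genes were called higher and 3.21% lower, and their median log2 fold change was 2.30 against -0.05 over all genes. Ciita rose most, 10.2-fold (log2 fold change 3.36, SE 0.47, adjusted p = 0.00208). Of the classical chains, RT1-Bb rose 7.88-fold (adjusted p = 0.00104), RT1-Ba 6.04-fold (adjusted p = 0.00716), RT1-Db1 5.26-fold (adjusted p = 0.00282) and RT1-Da 4.58-fold (adjusted p = 0.00532). Cd74 rose 4.62-fold (log2 fold change 2.21, SE 0.37, adjusted p = 0.00586), close to its RT1-Da value. RT1-DMb rose 3.22-fold (adjusted p = 0.00224) and RT1-DMa 2.73-fold (log2 fold change 1.45, SE 0.15, adjusted p = 0.000561), the smallest of the 8 changes and the one with the smallest error. Without NC 2, all 8 were again called, with log2 fold changes from 1.40 for RT1-DMa to 3.83 for Ciita.

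The other scaffolds lay between these groups. In PLA against NC, RT1-Bb alone was called higher (log2 fold change 1.76, SE 0.37, adjusted p = 0.0117), 1 of 8 members where 8.32% of all genes were higher and 4.01% lower. The other 7 members had log2 fold changes from 0.63 for RT1-DMb to 1.41 for RT1-Ba. RT1-DMa was among them at 0.75 (SE 0.16, adjusted p = 0.0128), past the p threshold but under the fold threshold. Without NC 2, 4 members were called, namely RT1-Bb, RT1-Da, Cd74 and Ciita; without CTS 2 there were 2, and without PLA 2, when the lone PLA library is assumed to vary like the other groups, there were 0. In CTS against NC, edgeR called 0 of 8 members, where 0.155% of all genes were higher and 0.0222% lower. At an unadjusted p under 0.05 there were 4, DESeq2 called 2 and limma on log2(FPKM + 1) 0. All 8 values were above 0, from 0.75 for RT1-Db1 to 1.37 for RT1-Bb, with a median of 0.92. RT1-DMa, at 0.96 (SE 0.15, adjusted p = 0.0474), was again past the p threshold and under the fold threshold. Without NC 1, RT1-DMa was called, and without NC 2, the 3 genes RT1-Da, RT1-DMb and Cd74 were.

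Against GelMA, both other scaffolds had lower class II levels, and which members passed the test differed. In PLA, 4 of 8 were called lower, where 1.47% of all genes were lower and 4.61% higher. Ciita was 4.19-fold lower (log2 fold change -2.07, SE 0.51, adjusted p = 0.0342), RT1-Da 2.94-fold lower (adjusted p = 0.0423), Cd74 2.90-fold lower (adjusted p = 0.0488) and RT1-DMb 2.08-fold lower (adjusted p = 0.0376). RT1-Ba, RT1-Bb and RT1-Db1 had log2 fold changes of -1.18, -1.22 and -1.33, at adjusted p of 0.172, 0.0816 and 0.0613. In CTS, 3 of 8 were called lower, where 1.32% of all genes were lower and 0.416% higher. These were Ciita (4.52-fold lower, log2 fold change -2.18, SE 0.44, adjusted p = 0.0361), RT1-Db1 (3.14-fold lower, adjusted p = 0.0401) and RT1-Bb (3.05-fold lower, adjusted p = 0.0451). The RT1-DM genes differed least here, at -0.49 (SE 0.15) for RT1-DMa and -0.43 (SE 0.23) for RT1-DMb. Most of these adjusted p-values were near the threshold. The PLA count was 0 without any 1 of the GelMA libraries, CTS 1, PLA 1 or PLA 2. The CTS count was 0 without any 1 of the GelMA or PLA libraries, CTS 1 or CTS 2, 1 without NC 3 or CTS 3, 5 without NC 1 and 6 without NC 2.

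PLA and CTS, the pair in the middle of the order, were not told apart. EdgeR called 0 of 8 members between them, where 6.42% of all genes were higher in PLA and 3.53% lower. At an unadjusted p under 0.05 there was 1, RT1-DMb, and DESeq2 and limma on log2(FPKM + 1) called 0. The log2 fold changes ran from -0.63 (SE 0.26) for RT1-DMb to 0.54 (SE 0.48) for RT1-Ba, with a median of 0.02. Cd74 was at -0.08 (SE 0.40) and Ciita at 0.11 (SE 0.48), errors that leave room for a difference of up to about the size of the fold threshold.

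**Figure D2:**
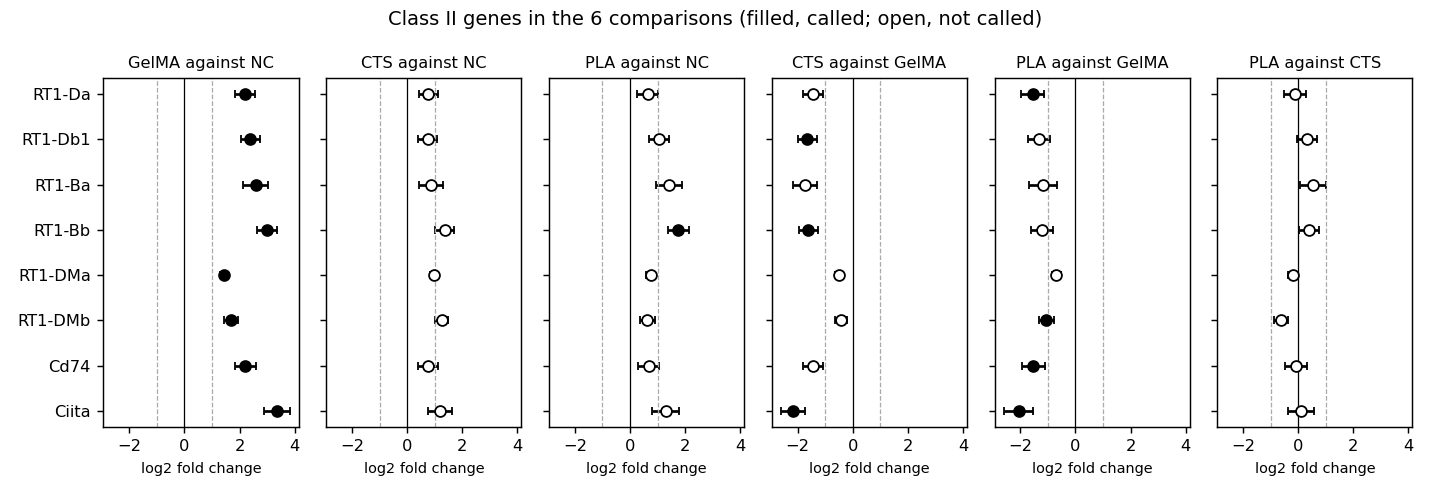
Log2 fold change of each class II gene in the 6 comparisons (first group minus second), with the SE; filled points were called and dashed lines mark a log2 fold change of 1 either way. All 8 points are filled in GelMA against NC, and none in CTS against NC or PLA against CTS.

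Per length, the members kept one order in GelMA. FPKM, which divides by gene length and library size, was 1745 ± 28.9 for Cd74 (SD, n = 3), 1011 ± 56.8 for RT1-Da, 474 ± 161 for RT1-Ba, 376 ± 73.2 for RT1-Db1, 323 ± 69.6 for RT1-Bb, 101 ± 4.16 for RT1-DMb, 71.1 ± 8.61 for RT1-DMa and 4.25 ± 0.248 for Ciita. RT1-Ba, RT1-Db1 and RT1-Bb, neighbours in that order, lay within 1 SD of RT1-Ba. In NC the order began in the same way, with Cd74 at 310 ± 114 FPKM and RT1-Da at 181 ± 65.2 FPKM, and ended with Ciita at 0.344 ± 0.18 FPKM.

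Cd74 and RT1-Da moved as one across the libraries. Their FPKM ratio stayed between 1.62 and 1.80 in all 11 libraries while each gene's CPM varied about 7-fold (7.10-fold for Cd74 and 7.08-fold for RT1-Da). The other chains did not hold to RT1-Da in this way. The ratio of RT1-Da to RT1-Ba had a median of 1.80 over the libraries but was 7.55 in NC 2, 4.10 in CTS 2, 3.51 in GelMA 1 and 3.09 in CTS 3. The ratio of RT1-Da to RT1-Db1 was from 2.04 in NC 3 to 4.23 in CTS 2. The high RT1-Da to RT1-Ba ratios thus came from some libraries of NC, GelMA and CTS and not from others of the same group. The stock is outbred, and counts per gene do not resolve alleles of these polymorphic genes.

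The classical alpha chain was also high relative to the exchange pair in GelMA. The FPKM ratio of RT1-Da to RT1-DMa was 17.0, 12.6 and 13.6 in GelMA and 4.93 to 9.39 in the other libraries, NC 2 excepted at 14.8. The ratio of RT1-Da to Ciita was 214 to 253 in GelMA and 291 to 1011 elsewhere. The ratio of RT1-Bb to Ciita did not separate the groups in this way, at 60.1 to 88.6 in GelMA, 48.5 in NC 2, 83.2 in CTS 2 and 92.7 to 218 in the other libraries. Cd74 stood at 0.70 to 0.821 of B2m, the light chain of class I, in GelMA, at 0.257 to 0.423 in NC, at 0.362 to 0.438 in CTS and at 0.153 and 0.200 in PLA. These ratios are descriptions without a test.

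**Figure D3:**
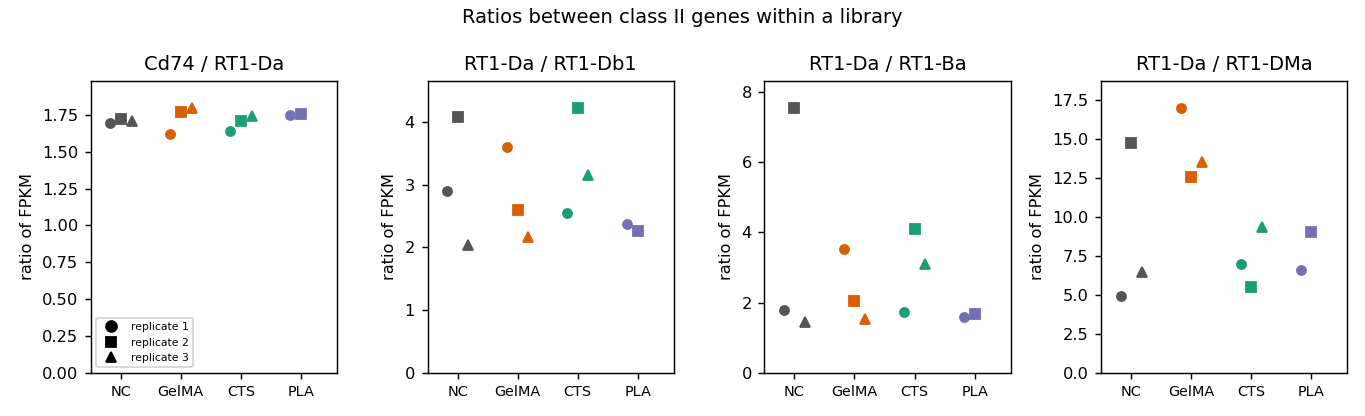
Ratio of FPKM between pairs of class II genes within each library (linear axes from 0), by group; point shapes are replicate numbers. Cd74 to RT1-Da lies between 1.62 and 1.80 throughout, whereas RT1-Da to RT1-Ba reaches 7.55 in NC 2.

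The accessory class II genes were sparse and highest in GelMA. RT1-DOa and RT1-DOb form a pair that restrains RT1-DM, mainly in B cells. Of 4 such genes tested (RT1-DOa, RT1-DOb, RT1-Db2 and RT1-Ha), 2 were called higher in GelMA than in NC, against 5.03% of all genes. These were RT1-DOa at a log2 fold change of 2.58 (SE 0.44, adjusted p = 0.00611) and RT1-DOb at 2.38 (SE 0.66, adjusted p = 0.0475). RT1-DOa was at 10.1 ± 1.57 CPM in GelMA (SD, n = 3) and 1.68 ± 0.946 CPM in NC (n = 3), and was called lower in PLA than in GelMA at -2.08 (SE 0.50, adjusted p = 0.031). The GelMA count was 1 without any 1 library other than NC 2, and the PLA call was lost without any 1 of the GelMA or PLA libraries or CTS 1. The promoters of RT1-DOb, RT1-Db2 and RT1-Ha held the spaced X and Y motifs, 28, 29 and 31 bases apart. That of RT1-DOa did not hold the spaced pair.

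No factor that reads those boxes passed the test. Of Rfx5, Rfxap, Rfxank, Nfya, Nfyb, Nfyc and Creb1, which bind the X and Y boxes, edgeR and DESeq2 called 0 of 7 in each of the 6 comparisons. With 5.03% of all genes called higher and 3.21% lower in GelMA against NC, 0 of 7 says little about them. At an unadjusted p under 0.05 there was 1 in PLA against GelMA and 0 in the other comparisons. Rfx5 was at 53.1 ± 3.47 CPM in GelMA and 39.3 ± 16.5 CPM in NC, and the 7 log2 fold changes between these groups ran from -0.38 to 0.44. Upstream of Ciita, 3 of 10 genes of the interferon gamma route were called higher in GelMA than in NC, among them Ifng and Irf8. The median log2 fold change of the 10 was 0.34, and the lowest was -0.63. Ifng itself was at 4.99 (SE 1.27, adjusted p = 0.0344), from 161 to 241 reads in GelMA against 0, 12 and 0 in NC. In edgeR's test among the 4 groups, Ifng had an adjusted p of 0.0544 and did not pass. Irf8, a myeloid and B cell transcription factor, was at 2.48 (SE 0.31, adjusted p = 0.00126). In PLA against NC, Irf8 was called at 2.05 (adjusted p = 0.00263), with the receptor chains Ifngr1 at 1.31 (adjusted p = 0.000394) and Ifngr2 at 1.23 (adjusted p = 0.00117). Jak1, a kinase of the receptor, was called higher in PLA than in CTS, at 1.11 (adjusted p = 0.0437), a call lost without any 1 of the GelMA or CTS libraries, NC 3 or PLA 1. In PLA against NC the count of 3 of 10 genes, where 8.32% of all genes were called higher, was 6 without NC 2.

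Some of the lysosomal genes that prepare peptides were highest in PLA and others in GelMA, but not all. Ctsh was at 602, 1404 and 733 CPM in NC, 515, 534 and 466 CPM in GelMA and 525 and 550 CPM in PLA. Ctsl was at 227, 2151 and 413 CPM in NC and at 930 and 883 CPM in PLA. Of the 9 lysosomal genes, 4 were called higher in GelMA than in NC (5.03% of all genes) and 6 in PLA than in NC (8.32% of all genes). In GelMA these included Ctss, the cathepsin that trims the invariant chain, at 2.75 (SE 0.24, adjusted p = 0.000429), the endopeptidase Lgmn at 2.75 (SE 0.47, adjusted p = 0.00596) and the thiol reductase Ifi30 at 1.79 (SE 0.16, adjusted p = 0.000449), beside 1 more gene. In PLA against GelMA, Ctsb, Lamp1 and Ctsd were called higher at 1.64, 1.44 and 1.41, while Ctss was called lower at -1.18 (SE 0.26, adjusted p = 0.0218), the direction of Ciita, RT1-Da, Cd74 and RT1-DMb. Ctsb was at 4911 ± 206 CPM in PLA (SD, n = 2), 1580 ± 334 CPM in GelMA (n = 3) and 746 ± 319 CPM in NC (n = 3), whereas Ctss was at 212 ± 21.5, 479 ± 63.5 and 71.4 ± 10.4 CPM. In CTS against NC, 2 of the 9, Ctss at 1.56 (adjusted p = 0.0474) and Ifi30 at 1.18 (adjusted p = 0.0422), were called higher, and Ctss was lower in CTS than in GelMA at -1.18 (adjusted p = 0.0312). The 2 calls of CTS against NC were lost without any 1 of the GelMA or PLA libraries, NC 3, CTS 1 or CTS 3. Between PLA and CTS, 4 were called higher in PLA (6.42% of all genes), led by Ctsb at 2.63 and Ctsd at 1.77. In CTS against NC, 0.155% of all genes were called higher. The lower Ctss call was lost in PLA without GelMA 1, GelMA 2, PLA 1 or PLA 2, and in CTS without any 1 of the GelMA or PLA libraries, NC 3, CTS 1 or CTS 2.

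Costimulatory and inhibitory ligands, which decide what a T cell does with a class II signal, and the receptor Cd40 were high in GelMA. Some of these genes were higher in PLA. All 5 tested were called higher in GelMA than in NC, led by Pdcd1lg2 (PD-L2) at 4.49 (SE 0.57, adjusted p = 0.00136), Cd80 at 2.75 (SE 0.33, adjusted p = 0.000889) and Cd274 (PD-L1) at 2.39 (SE 0.34, adjusted p = 0.00245). In PLA against NC 4 were called higher, with Pdcd1lg2 at 5.64, Cd274 at 5.09 and Cd40 at 1.94. Of all genes, 5.03% were called higher in GelMA against NC and 8.32% in PLA against NC. Cd274 was at 3014 ± 276 CPM in PLA (SD, n = 2) against 463 ± 205 CPM in GelMA (n = 3), a called difference of 2.70 (SE 0.36, adjusted p = 0.00193). Cd80, which activates T cells through Cd28, went the other way, at -1.52 (SE 0.36, adjusted p = 0.0283) in PLA against GelMA. In CTS against GelMA, Pdcd1lg2 and Cd274 were called lower at -2.71 and -2.09. Cd80 was no longer called without any 1 of the GelMA or PLA libraries, and in CTS 0 or 1 genes were called without any 1 of these, CTS 1 or CTS 2. In PLA against NC the count was 2 without PLA 2.

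Among genes of class II turnover, Il10, an interleukin known to draw class II off the surface of myeloid cells, was at 91.5 ± 8.90 CPM in GelMA (SD, n = 3), 243 ± 50.6 CPM in PLA (n = 2), 19.2 ± 7.28 CPM in CTS (n = 3) and 7.80 ± 2.76 CPM in NC (n = 3). It was called higher in PLA than in GelMA at 1.41 (SE 0.33, adjusted p = 0.0289) and lower in CTS than in GelMA at -2.25 (adjusted p = 0.0121). Cd83, which protects class II from removal, had a log2 fold change of 2.05 in GelMA against NC (SE 0.33, adjusted p = 0.00429) and was called. The ubiquitin ligase Marchf1, which marks class II for removal, was at 67.4 ± 2.17 CPM in GelMA and 47.9 ± 25.3 CPM in NC and was not called, nor was its relative Marchf8. The Il10 call of PLA against GelMA was lost without any 1 of the GelMA or PLA libraries, and that of CTS against GelMA without any 1 of the GelMA libraries, CTS 1 or CTS 2. Of 8 partners, Cd4, the T cell coreceptor for class II, rose in GelMA against NC at 2.71 (adjusted p = 0.00262) and in PLA against NC at 1.60 (adjusted p = 0.025). Lag3, an inhibitory class II receptor, was called at 2.25 in GelMA against NC (adjusted p = 0.00635), and lower than in GelMA both in PLA, at -1.93, and in CTS, at -2.46. Mif, a cytokine that binds Cd74, was called higher in PLA than in NC, GelMA and CTS, at 2.44, 1.57 and 2.08, and Cd44, which carries the Mif signal with Cd74, in PLA against NC at 1.20. Without any 1 of the GelMA or PLA libraries Lag3 was not called in PLA against GelMA, and without any 1 of the GelMA libraries, CTS 1 or CTS 2 it was not called in CTS against GelMA.

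Class I presentation moved less than the class II members in GelMA against NC, at a median log2 fold change of 1.17 against 2.30. In PLA against CTS it moved more, from -1.30 to 1.95 against -0.63 to 0.54 for the members. There 1 class I gene was called higher and 2 lower, where 6.42% of all genes were higher and 3.53% lower. Of 22 genes, 9 were called higher in GelMA than in NC, with a median log2 fold change of 1.17 over the 22, among them RT1-CE5 at 1.67 (SE 0.18, adjusted p = 0.000582), the peptide transporter Tap1 at 1.59 and the proteasome subunit Psmb9 at 1.44. The count was 12 without NC 2 and 4 without GelMA 2 or GelMA 3. Of all genes, 5.03% were called higher in GelMA against NC, 8.32% higher in PLA against NC and 1.47% lower in PLA against GelMA. B2m was called higher in PLA than in NC at 1.59 (adjusted p = 0.00361) and in PLA than in CTS at 1.10, while RT1-A2 was lower in PLA than in GelMA at -1.73 (adjusted p = 0.00516) and than in CTS at -1.14. In PLA against NC the count of 2 was 5 without NC 2, and in PLA against GelMA the count of 2 was 1 without GelMA 3 and 0 without PLA 1 or PLA 2. In PLA against CTS the B2m call was lost without GelMA 2, CTS 1, CTS 2, PLA 1 or PLA 2, and the 2 lower calls were 1 without CTS 1 and 0 without PLA 1 or PLA 2.

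**Figure D4:**
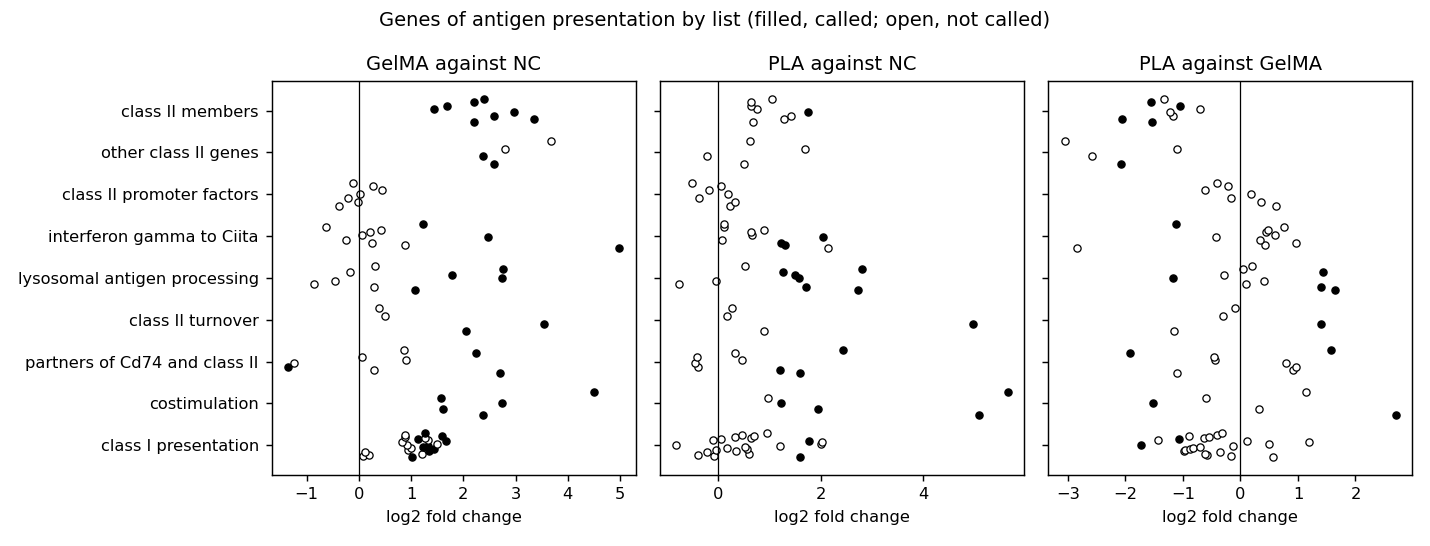
Log2 fold change of each gene of 9 antigen presentation lists in 3 comparisons; each point is 1 gene, filled where called. In GelMA against NC all class II members and costimulatory genes are filled and no promoter factor is, and in PLA against GelMA the class II members lie left of 0 while Cd274 stands at 2.70.

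Many lymphocyte, macrophage and dendritic cell markers were called higher in GelMA than in NC, although the sort was meant to remove leukocytes. Over all genes, 5.03% were called higher in this comparison. All 8 B cell markers were called higher in GelMA than in NC, their summed level being 355 to 508 CPM in GelMA, 32.4 to 55.4 CPM in NC, 110 to 158 CPM in CTS and 65.7 and 90.4 CPM in PLA. Of 8 T and NK cell markers 7 were called higher, with sums of 561 to 651 CPM in GelMA, 46.5 to 129 CPM in NC, 114 to 202 CPM in CTS and 193 and 213 CPM in PLA. Of 12 monocyte and macrophage markers 9 were called higher, among them Adgre1 (F4/80), at 236 ± 53.5 CPM in GelMA (SD, n = 3) and 11.2 ± 2.03 CPM in NC (n = 3). Their sum, dominated by Lyz2, did not follow, at 5512 to 9012 CPM in GelMA and 2689 to 10714 CPM in NC. Of 10 dendritic cell markers tested, 5 were called higher. Their sum was highest in PLA, at 1064 and 1048 CPM, against 566 to 741 CPM in GelMA and 227 to 421 CPM in NC. Itgax, at 898 and 851 CPM, made up most of the PLA sums. The mean log2(CPM + 1) over the listed markers was instead highest in GelMA, at 4.14 to 4.52, against 3.86 and 4.13 in PLA. Cd209a was at 0 in all but 2 libraries. The dendritic cell count was 3 without NC 3 and 2 without GelMA 2 or GelMA 3.

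In PLA against GelMA, 7 of 8 B cell, 2 of 8 T and NK cell, 2 of 12 macrophage and 1 of 10 dendritic cell markers were called lower, and in CTS against GelMA 5, 5, 2 and 1. Of all genes, 1.47% were called lower in PLA against GelMA and 1.32% in CTS against GelMA. Leaving out 1 library gave 4 to 7, 0 to 5, 0 to 4 and 0 to 2 in the former and 0 to 7, 0 to 6, 1 to 5 and 0 to 2 in the latter. In PLA against NC, 2 B cell, 6 T and NK cell, 5 macrophage and 5 dendritic cell markers were called higher. Without NC 3 these counts were 1, 4, 3 and 3. In the same comparison 1 T and NK cell marker was called lower and 1 class II member higher. The lower call was lost without any 1 of the GelMA or CTS libraries, NC 1 or NC 3. Of all genes, 8.32% were higher and 4.01% lower in PLA against NC. In PLA against CTS, 3 B cell markers were called lower, and 1 T and NK cell, 2 macrophage and 3 dendritic cell markers higher. Of all genes, 6.42% were higher and 3.53% lower there. The B cell count was 0 without CTS 1 and 5 without NC 2, and the dendritic cell count was 1 without CTS 2. Class II members had 0 calls between PLA and CTS. Over all genes, 5.03% were called higher and 3.21% lower in GelMA against NC, so a count of 0 among 8 pan-leukocyte genes says little. EdgeR called 0 of 8 in GelMA against NC, with 1 at an unadjusted p under 0.05 and 0 with DESeq2, and Ptprc was at 1248 ± 105 CPM in GelMA (SD, n = 3) and 988 ± 583 CPM in NC (n = 3). The ratio of Cd74 to Ptprc in FPKM was 5.78 to 7.18 in GelMA, 1.78 to 3.82 in CTS and 2.27 and 3.01 in PLA, but 0.788, 8.37 and 1.03 in NC, where NC 2 had the highest ratio of all. Of 7 neutrophil markers tested, 4 were called lower in GelMA than in NC, a count of 0 to 2 without NC 3 or any 1 of the GelMA libraries. Of the lists for endothelial and fibroblast cells, edgeR called 0 of 8 and 0 of 10 genes in GelMA against NC, with 3 and 3 at an unadjusted p under 0.05. DESeq2 called 1 endothelial gene higher and 2 lower, and 3 fibroblast genes lower, and without NC 1 edgeR called 5 of the 10 fibroblast genes lower in GelMA. Of 8 osteoblast genes 2 were called higher, and 0 to 2 with 1 library left out. The part of the cell types in the class II levels was not tested.

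**Figure D5:**
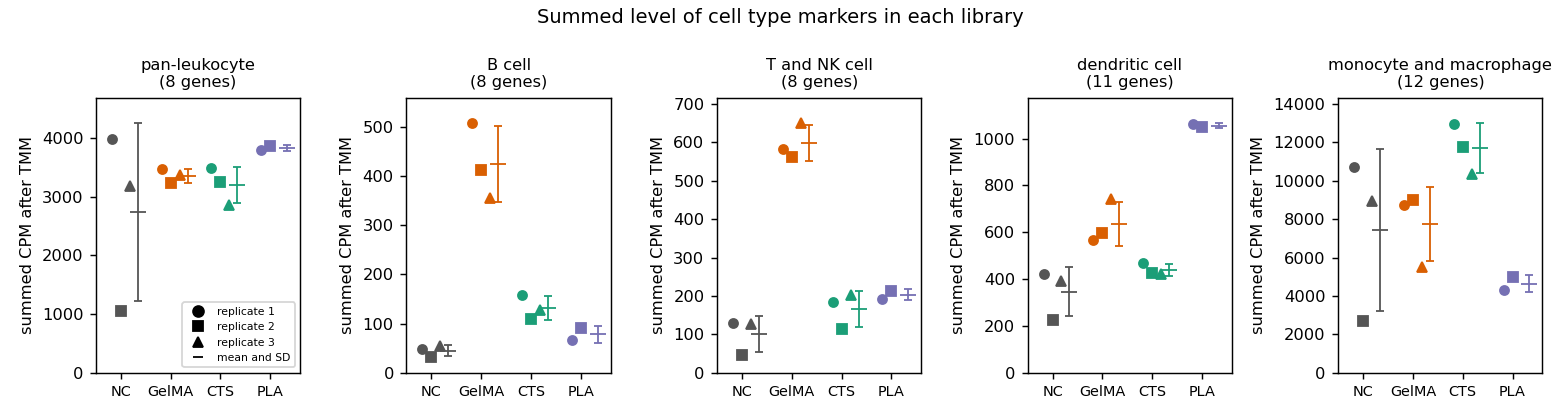
Summed CPM after TMM scaling of the markers of 5 cell types in the 11 libraries (linear axes from 0), by group; point shapes are replicate numbers and the bar beside each group is its mean with the SD (n = 3, PLA n = 2). B cell and T and NK cell sums are highest in the 3 GelMA libraries. Dendritic cell sums, mostly Itgax in PLA, are highest in the 2 PLA libraries. Pan-leukocyte sums overlap between NC, GelMA and CTS, and those of PLA lie within the NC range.

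Among 9339 genes with a mean log2 CPM of at least 3, the 10 whose pattern over the 11 libraries was most like the mean of the 7 members other than Ciita were Lpxn, Prkch, LOC685067, Akap17b, Slc12a7, Cnp, Gpr183, LOC100910973, Dgka and Trim5. Likeness was the SD over libraries of the difference in log2 CPM, which was 0.23 for Lpxn and 0.30 for Trim5, against a median of 0.98 over all genes compared. Lpxn, a focal adhesion adaptor of blood cells, had a mean log2 CPM of 4.45 in NC, 6.43 in GelMA, 5.43 in CTS and 5.23 in PLA. Gpr183, an oxysterol receptor that guides B cells and dendritic cells, had 4.46, 6.85, 5.74 and 6.06. These genes were picked for their pattern, so no test was made.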

How the data were processed

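RNA-seq libraries of Cd45- sorted rat cells were represented by a table of read counts and a table of FPKM. Per the labels, the authors used fastp, HISAT2, HTSeq and DESeq on build mRatBN7.2 to make the deposited counts, with no versions given, and the strand setting was not given in the sources used here. The deposited FPKM (counts scaled by gene length and library size) carried the same reads as the counts: all 205408 values above 0 agreed within a relative tolerance of 0.001 after allowing for 1 length per gene. Groups were taken from the sample labels, which do not say that libraries came from separate rats, so p-values measure the spread between these libraries.

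Counts were filtered in edgeR 4.0.16 under R 4.3.3 (filterByExpr, minimum count 10), scaled by TMM and fitted with the robust quasi-likelihood model in 1 fit over the 11 libraries. P-values were adjusted (Benjamini-Hochberg) over 18049 genes, and genes were called where that p was below 0.05 and the change in log2 units exceeded 1. Counts were also simulated with the spread of the fit over the 11 libraries and tested in GelMA against NC. The 200 changed genes of 18049 were drawn from those with a mean above 50 reads. Of the changes, 68% of 4-fold and 8% of 2-fold ones were recovered, and 2 of 78 calls were false. The alternatives were other scalings and filters, fits of 2 groups, DESeq2 1.42.0, limma 3.58.1 on log2(FPKM + 1) and log2(FPKM + 0.1), a replicate block and leaving out each library. The members and gene lists were chosen with earlier results of these data known. The text names all 8 members, up to 3 called genes per list and direction, and the 10 genes whose log2 CPM ran closest to the mean of the members other than Ciita, beside genes given as background values. A gene of the interferon gamma list is not reported here. Promoters came from RefSeq (GRCr8), 250 bases before to 50 bases after a start.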

Additional observations from a re-analysis of the deposited data

How the results depend on the processing

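The count of 8 class II genes called higher in GelMA than in NC, and the 8 that differed among the 4 groups, were the same under every alternative run, each library left out included. Of 1008 alternative values of the members' log2 fold changes, 866 kept their direction and their side of the threshold, 59 passed it in addition, 64 no longer passed it and 19 changed sign. With library size alone, under which the median gene stood at -0.58 in PLA against GelMA rather than -0.04, 8 members were called lower in PLA than in GelMA, 1 lower in PLA than in CTS and 1 higher in CTS than in NC. Without the filter 1 member was called higher in CTS than in NC. With 2 groups per fit, 0 were called higher in PLA than in NC and 6 lower in CTS than in GelMA. DESeq2 called 4 higher in PLA than in NC, 2 higher in CTS than in NC and 6 lower in CTS than in GelMA. Limma on log2(FPKM + 1) called 7 lower in PLA than in GelMA and 5 lower in CTS than in GelMA. With 0.1 added, the counts were 7 and 5, and 1 higher in CTS than in NC. Limma without the filter gave 7 lower in PLA than in GelMA and 0 higher in PLA than in NC. Without a fold threshold, 2 were called higher in PLA than in NC and 1 in CTS than in NC. With the replicate block, 0 were called lower in PLA than in GelMA and 0 lower in CTS than in GelMA, while 8 stayed called in GelMA against NC. The shared numbers gave no sign of pairing. Deviations of same-numbered libraries correlated at -0.11 to 0.12 over 15 pairs and those of other libraries at -0.19 to 0.26 over 30 pairs. With deviations taken from means of 2 or 3 libraries, this check cannot exclude pairing.

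Leaving out 1 library gave 0 to 4 members higher in PLA than in NC, 0 to 3 higher in CTS than in NC, 0 to 5 lower in PLA than in GelMA and 0 to 6 lower in CTS than in GelMA. The signs that changed were those of PLA against CTS, where no member was called with TMM scaling. With library size alone the log2 fold changes were -0.0938 for RT1-Bb, -0.165 for RT1-Db1 and -0.366 for Ciita. With limma and 1 added, with and without the filter, they were -0.0432, -0.0855 and -0.151, and with 0.1 added -0.0430, -0.0854 and -0.287. Leaving out 1 library gave -0.0693 to 0.366 for Ciita, -0.0322 to 0.546 for RT1-Db1, -0.364 to 0.0869 for RT1-Da and -0.325 to 0.159 for Cd74. The cause of these changes was not tested. Ciita had the fewest reads of the members, at 18 to 75 in the NC libraries and 124 to 206 in CTS and PLA.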
